A study of Mus musculus with 3 samples.

Results

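Cellular iron handling was described in F121-9 mouse embryonic stem (ES) cells through 9 genes, chosen by name from the 55536 genes with an Ensembl identifier. Their roles span storage (Ftl1, Fth1), uptake (Tfrc, Slc11a2), export (Slc40a1), sensing (Aco1, Ireb2) and haem breakdown (Hmox1). As a near copy of Ftl1, Ftl1-ps1 is counted below with the storage and light chain genes. Whether it yields a protein was not tested. All 9 were found in the gene tables, with 49 annotated transcripts. The list was drawn up with levels in these libraries known, so every level below is a description with no test.

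RNA-seq of total RNA covered 3 libraries, labelled biological replicates 1 to 3, each from 400 ng of RNA at passage 14. The line comes from a cross of Cast and 129 parents. No treatment is named, so the libraries form 1 group of 1 line and nothing can be compared between conditions. Nothing says that the libraries came from separate cultures, so p-values measure only the spread between them, which may be technical. Each library was quantified by 2 routes, called RSEM-style and kallisto-style here after the columns of the deposited tables. Levels are TPM, a transcript abundance scaled for transcript length and library size. Values after ± are the SD over n = 3 libraries.

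Ferritin is a hollow shell of light (FTL) and heavy (FTH1) chains in which cells store iron, and only the heavy chain oxidises the incoming metal. Transferrin-bound iron enters through the transferrin receptor TFRC, passes into the cytosol through the transporter SLC11A2 (DMT1) and leaves the cell through ferroportin, SLC40A1. When iron is scarce, the iron regulatory proteins IRP1 (Aco1) and IRP2 (Ireb2) bind iron responsive elements, short hairpins in messenger RNAs. Binding near the start of ferritin mRNA blocks its translation, and binding in the tail of Tfrc mRNA stabilises it. HMOX1, an inducible oxygenase, releases iron from haem.

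All 6 ES cell markers on a fixed list reached at least 1 TPM in every library, between 106 ± 13.6 TPM (Esrrb) and 505 ± 10.9 TPM (Nanog). In each of 4 lists of other cell types that handle much iron or may accompany ES cells, at most 2 genes did. These were Pdgfrb at 1.53 ± 0.275 TPM of 7 fibroblast genes, Epor at 1.67 ± 0.654 TPM of 7 erythroid genes, Csf1r at 3.43 ± 0.135 and Cd68 at 17.6 ± 4.01 TPM of 5 macrophage genes, and none of 4 hepatocyte genes. Summed within a library, the ES cell list held 1844 to 2128 TPM, the fibroblast list 2.92 to 4.17 TPM, the erythroid list 2.19 to 3.01 TPM, the macrophage list 18.27 to 25.8 TPM and the hepatocyte list 0 to 1.38 TPM. In bulk RNA, fewer cells of a type and less RNA per cell cannot be told apart. The fibroblast genes Col3a1, Dcn and Lum, the globin genes Hbb-bs and Hbb-bt, the macrophage genes Adgre1, Cd163 and Ptprc, and the hepatocyte genes Alb and Fgb had 0 counts in the RSEM-style gene tables, where 0 counts allow up to 3. Replicate 1 stood apart from the other libraries: 1656 of 13391 genes (12.4%) varied beyond counting noise, and without replicate 1 this was 27 of 13489 (0.2%).

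The annotated mRNAs were searched for an iron responsive element, because these sites tie the storage, uptake and export genes together. The search took a C, 5 bases, the loop CAGTGN whose last base is not G, and 5 bases that pair with the first 5, G with T allowed. Only the transcript strand was read, and a second form allowed 1 unpaired base in the 3′ arm. Of 141767 transcripts searched, 0.466% held the first form and 0.947% the second. Matches fell in 6 of the 9 genes, a count by gene that cannot be set against those shares of transcripts. The form searched is that of the known element, so the matches show where it lies and test nothing. The sequences are those of GENCODE M21 transcripts with mm10 coordinates, and capitals mark the loop.
Ftl1, 5′ UTR, chr7:45459779-45459808, minus strand: tgtcttgcttcaaCAGTGTttgaacggaac
Ftl1-ps1, 5′ UTR, chr13:74406427-74406456, plus strand: tgtcttgcttcaaCAGTGTttgaacggaac
Fth1, 5′ UTR, chr19:9982731-9982760, plus strand: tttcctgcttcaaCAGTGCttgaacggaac
Slc40a1, 5′ UTR, chr1:45925465-45925494, minus strand: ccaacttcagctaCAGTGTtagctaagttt
Slc11a2, 3′ UTR, second form, chr15:100395153-100395182, minus strand: gagccatcagagcCAGTGTgtttctatggt
Tfrc, 3′ UTR, chr16:32631218-32631247, plus strand: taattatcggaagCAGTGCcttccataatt
Tfrc, 3′ UTR, chr16:32631597-32631626, plus strand: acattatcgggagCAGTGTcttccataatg
Tfrc, 3′ UTR, chr16:32631662-32631691, plus strand: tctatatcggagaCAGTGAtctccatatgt
Tfrc, 3′ UTR, chr16:32631709-32631738, plus strand: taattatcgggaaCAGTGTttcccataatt
The 30 bases of Ftl1 and Ftl1-ps1 are the same. Storage and export genes carry 1 site each, ahead of the coding region. Tfrc carries 4 sites behind the coding region, and Slc11a2 carries 1 there in a single annotated transcript, Slc11a2-205. These are counts of matches to the forms searched, and elements of other forms were not looked for. No match was found in the annotated transcripts of Ireb2, Aco1 and Hmox1, which says only that these letters are not there.

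Storage genes led the group by a wide margin. Ftl1 (ENSMUSG00000050708.16, chromosome 7, 45457944 to 45459884, minus strand, mm10) encodes the ferritin light chain. It stood at 5628, 6076 and 6225 TPM in replicates 1, 2 and 3 in the RSEM-style tables, and at 4026, 4019 and 4125 TPM in the kallisto-style tables. Ftl1-ps1 (ENSMUSG00000062382.9, chromosome 13, 74399694 to 74407346, plus strand) has the name of a pseudogene but is annotated as protein-coding. It stood at 3950.35, 4305 and 4320.14 TPM in the RSEM-style tables, and at 2739, 2743 and 2794 TPM in the kallisto-style tables. In the RSEM-style tables replicate 1 was the lowest library for both genes. Ftl1 exceeded Ftl1-ps1 in every library of both tables, and their ranges did not overlap.

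The sum of Ftl1 and Ftl1-ps1, which does not depend on how shared reads are split between them, was 9579, 10381 and 10545 TPM in the RSEM-style tables and 6765, 6762 and 6919 TPM in the kallisto-style tables. In the RSEM-style tables this was 1.02% of all TPM and the second highest level when the sum is ranked among all genes. It lay between Dppa5a, an ES cell gene at 26198 ± 1726 TPM, and mt-Atp8, a mitochondrial ATP synthase gene at 8091 ± 325 TPM. In the kallisto-style tables the sum ranked 7. No other gene was summed with its copies for these ranks. Alone, Ftl1 ranked 4 and Ftl1-ps1 ranked 6 among all genes in the RSEM-style tables, and they ranked 15 and 29 in the kallisto-style tables. Ftl1-ps1 made up 41.2 ± 0.252% of the sum in the RSEM-style tables and 40.5 ± 0.0918% in the kallisto-style tables. The ratio of Ftl1-ps1 to Ftl1 was 0.701 ± 0.0073 in the RSEM-style tables and 0.680 ± 0.00259 in the kallisto-style tables.

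**Figure D1:**
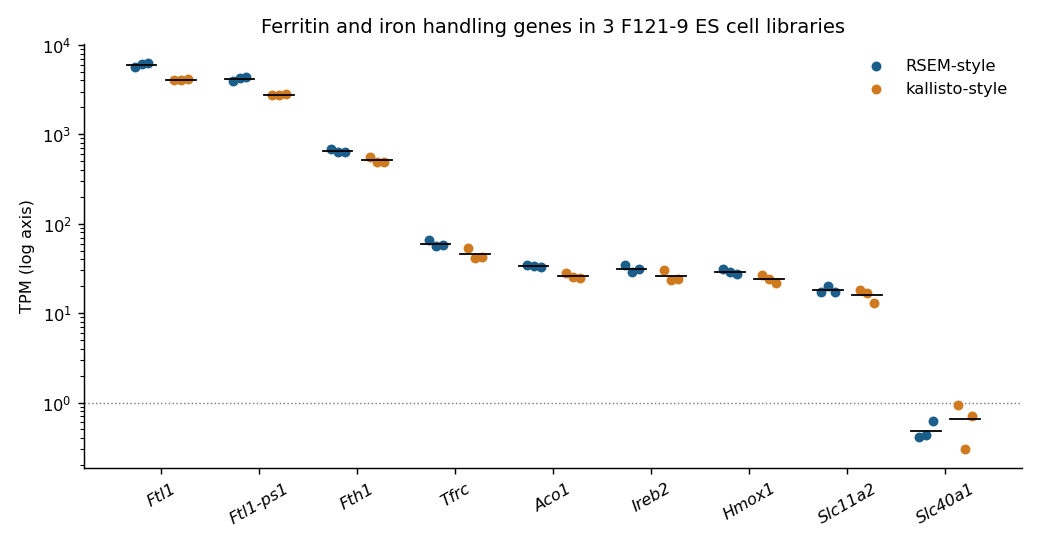
TPM of the 9 genes on a log axis, with 1 point per library and a bar at the mean, RSEM-style tables left and kallisto-style tables right. In the RSEM-style tables the light chain genes lie between 3950.35 and 6225 TPM, the mean of Fth1 is 651 TPM, 5 genes have means between 18.1 and 59.7 TPM, and Slc40a1 lies below the dotted line at 1 TPM.

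The near identity of the light chain copies limits what can be said of either alone. Ftl1-ps1-202, 938 nt in 1 exon, matched Ftl1-201, 968 nt in 4 exons, at 906 of 910 aligned bases (99.6%). The 4 differences, counted from 1 at the 5′ end of Ftl1-201 with its base first, were A196G, G721A, G757A and A817G, and the longest identical run was 524 bases. Of all 100-base windows of Ftl1-201, 59.3% also occurred in Ftl1-ps1-202. Another copy, Ftl2-ps, is an annotated processed pseudogene of 552 nt on chromosome 4 (125504288 to 125504839, plus strand). It matched at 545 of 552 bases (98.7%) and shared G721A and G757A with Ftl1-ps1. The stretch printed here, from the coding region of Ftl1, holds the differences that both copies share, with bases that differ from Ftl1-201 in capitals.
Ftl1-201, bases 711 to 770: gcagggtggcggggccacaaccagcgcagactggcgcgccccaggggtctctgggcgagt
Ftl1-ps1-202, bases 653 to 712: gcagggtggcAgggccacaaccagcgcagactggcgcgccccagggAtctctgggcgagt
Ftl2-ps-201, bases 458 to 517: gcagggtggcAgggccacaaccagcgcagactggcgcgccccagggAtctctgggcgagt
Over this stretch Ftl1-ps1-202 and Ftl2-ps-201 differ from Ftl1-201 at the same 2 bases. The RSEM-style tables also give a posterior SD of each estimated count, the authors' own measure of how firmly reads could be assigned. It was 76.2 to 78.9 counts for Ftl1, on 32796 to 35801 estimated counts, and 79.8 to 81.5 counts for Ftl1-ps1, on 22148 to 23904 estimated counts. It was 0 for the other 7 genes. The mm10 bases are those of another strain than the parents of the line, and the part of strain alleles in this split was not tested.

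Ftl2-ps differed between the quantifications. It stood at 488, 506 and 518 TPM in the RSEM-style tables, close to Fth1 in level, and at 94.1, 90.2 and 98.7 TPM in the kallisto-style tables. The difference in log2(TPM + 1), RSEM-style minus kallisto-style, was 2.41 (SE 0.051; limma, adjusted p = 1.62e-05), higher in 3 of 3 libraries, and of all genes tested 2.36% were called higher in the RSEM-style tables. Adding Ftl2-ps brought the light chain sum to 10672 ± 532 TPM in the RSEM-style tables and to 6910 ± 93.6 TPM in the kallisto-style tables. A further processed pseudogene, Ftl1-ps2, stood at 1.03 ± 0.713 TPM in the RSEM-style tables and 3.53 ± 1.13 TPM in the kallisto-style tables.

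Genes annotated on the other strand of the light chain genes also held many counts. Gm10252 (chromosome 7, 45459469 to 45460300, plus strand) overlaps Ftl1 by 416 bp and stood at 1192, 1293 and 1302 TPM in the RSEM-style tables, and at 1170.34, 1149.88 and 1172 TPM in the kallisto-style tables. Gm47428 (chromosome 13, 74404183 to 74406737, minus strand) is annotated as antisense, lies within Ftl1-ps1 and stood at 2207, 2402 and 2341 TPM in the RSEM-style tables, and at 2531, 2537 and 2539 TPM in the kallisto-style tables. Together they amounted in TPM to 35.2 ± 0.575% of the light chain sum in the RSEM-style tables and to 54.3 ± 0.572% in the kallisto-style tables. In estimated counts the shares were lower, 24.3 ± 0.373% in the RSEM-style tables and 38.2 ± 0.421% in the kallisto-style tables. These genes are themselves near copies over part of their length: 34.5% of the 50-base windows of Gm47428-201 occurred in Gm10252-201. On the opposite strand, 45.8% of the windows of Gm47428-201 occurred in Ftl1-ps1-202 and 39.2% of those of Gm10252-201 in Ftl1-201.

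The strand setting of the quantification is not given in the sources used here, so they do not state whether reads were assigned by strand. Which strand these reads came from was not tested. The estimated counts of Gm10252 and Gm47428 summed to whole numbers (within 0.03) in 3 of 3 libraries of each table, 13439, 13918 and 14234 in the RSEM-style tables and 31473, 32114 and 33363 in the kallisto-style tables, while neither gene alone did so in any library of either table. Within the rounding of the counts given, Gm10252 and Gm47428 shared fractions of reads with each other and with no other gene. The sum of Ftl1 and Ftl1-ps1 was whole within 0.03 in 0 of 3 libraries of each table, also with Ftl2-ps added. Kallisto-style estimated counts of this size are given with a single decimal, which is coarser than 0.03. The kallisto-style sum with Ftl2-ps in replicate 1, 82204.055, therefore cannot be told from a whole number. The posterior SDs of Gm10252 and Gm47428 equalled each other in each library (33.74, 33.55 and 33.63 counts) and differed from those of Ftl1 and Ftl1-ps1. With both antisense genes added, the sum was 13748 ± 669 TPM in the RSEM-style tables and 10515 ± 100.05 TPM in the kallisto-style tables.

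**Figure D2:**
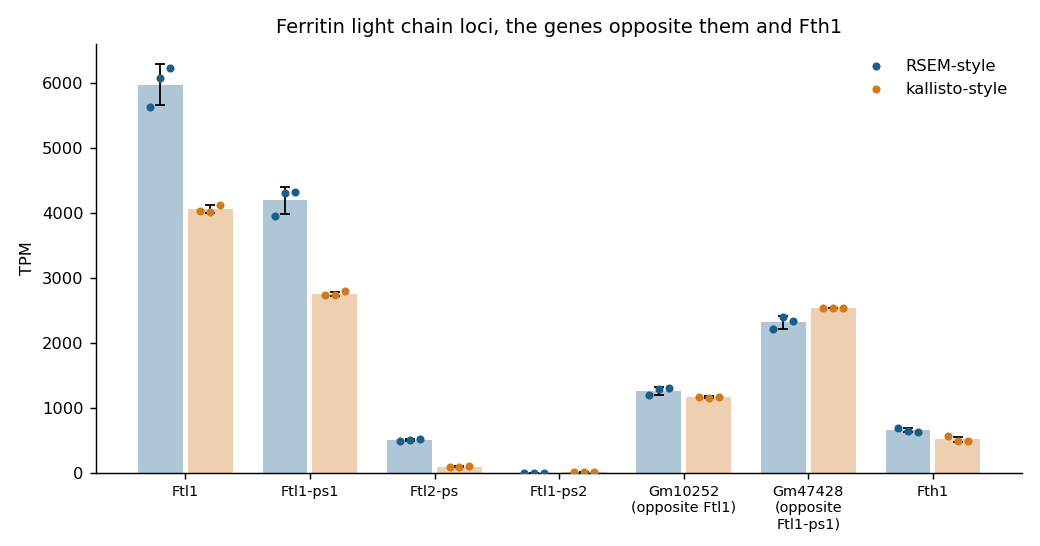
TPM of the ferritin light chain loci, of the genes on the opposite strand and of Fth1, on a linear axis from 0, RSEM-style tables left and kallisto-style tables right. Bars are means, error bars the SD and points the 3 libraries; the bar of Ftl2-ps stands at 504 TPM in the RSEM-style tables and 94.3 TPM in the kallisto-style tables, and that of Gm47428 at 2317 TPM in the RSEM-style tables and 2535.5 TPM in the kallisto-style tables.

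Fth1, the heavy chain gene (ENSMUSG00000024661.7, chromosome 19, 9980598 to 9985098, plus strand), stood at 687, 640.0 and 627 TPM in the RSEM-style tables, and at 558, 491 and 488 TPM in the kallisto-style tables. Replicate 1 was highest in both tables, the reverse of the light chain genes in the RSEM-style tables. It ranked 222 among all genes in the RSEM-style tables and 281 in the kallisto-style tables, between the chaperonin genes Hspe1 (652 ± 24.9 TPM) and Cct7 (648 ± 25.6 TPM) among protein-coding genes in the RSEM-style tables. The light chain sum exceeded Fth1 13.95-fold, 16.2-fold and 16.8-fold in replicates 1, 2 and 3 in the RSEM-style tables, and 12.1-fold, 13.8-fold and 14.2-fold in the kallisto-style tables. As Fth1 over the sum, this was 0.0643 ± 0.00651 in the RSEM-style tables and 0.0752 ± 0.00642 in the kallisto-style tables.

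Of 14 other ferritin loci, 6 had at least 1 TPM in every library of the RSEM-style tables. Besides Ftl2-ps these were X-linked heavy-chain-like genes of the Fthl17 family. Fthl17c led at 61.6 ± 5.27 TPM in the RSEM-style tables and 39.8 ± 4.14 TPM in the kallisto-style tables. Fthl17d stood at 14.2 ± 1.21 TPM, Fthl17f at 11.9 ± 2.22 TPM, Fthl17e at 11.5 ± 1.50 TPM and the pseudogene Fthl17-ps2 at 3.50 ± 1.89 TPM in the RSEM-style tables. The 4 protein-coding genes Fthl17c to Fthl17f together held 93.8, 103 and 101 TPM in the RSEM-style tables, against Fth1 levels of 627 TPM and more; they too share sequence, with posterior SDs above 0. Ftmt, the mitochondrial ferritin gene, had 0 counts in every library of the RSEM-style gene tables, which allows up to 0.288 to 0.313 CPM (counts scaled to library size only) as counting error only.

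The uptake genes were expressed and the export gene was close to the detection limit. Tfrc, the transferrin receptor gene (ENSMUSG00000022797.16, chromosome 16, 32608920 to 32632794, plus strand), stood at 65.8, 55.7 and 57.5 TPM in the RSEM-style tables, and at 52.9, 41.6 and 42.4 TPM in the kallisto-style tables. Replicate 1 was the highest library in each table. Slc11a2, the DMT1 gene (ENSMUSG00000023030.16, chromosome 15, 100387898 to 100425072, minus strand), stood at 17.1, 19.95 and 17.1 TPM in the RSEM-style tables, and at 18.0, 16.6 and 13.1 TPM in the kallisto-style tables. Replicate 2 was highest in the RSEM-style tables and replicate 1 in the kallisto-style tables. Slc40a1, the ferroportin gene (ENSMUSG00000025993.10, chromosome 1, 45908068 to 45926523, minus strand), stood at 0.41, 0.43 and 0.62 TPM on 10, 6 and 14 counts in the RSEM-style tables, and at 0.936, 0.302 and 0.713 TPM on 19, 15 and 20 estimated counts in the kallisto-style tables. It was the lowest of the 9 genes in every library of both tables. The ratio of Tfrc to Slc40a1 in TPM, 161, 129.6 and 92.8 in the RSEM-style tables against 56.5, 138 and 59.5 in the kallisto-style tables, was uncertain because of these few counts.

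The iron regulatory protein genes stood at like levels. Aco1, the gene of IRP1, which serves as cytosolic aconitase when it carries an iron-sulfur cluster (ENSMUSG00000028405.9, chromosome 4, 40143081 to 40198338, plus strand), stood at 34.3, 33.8 and 33.0 TPM in the RSEM-style tables, and at 28.05, 25.4 and 24.8 TPM in the kallisto-style tables. Ireb2, the gene of IRP2, whose protein is degraded when iron is plentiful (ENSMUSG00000032293.8, chromosome 9, 54863789 to 54912530, plus strand), stood at 34.5, 28.6 and 31.4 TPM in the RSEM-style tables, and at 30.4, 23.4 and 23.8 TPM in the kallisto-style tables. Ireb2 over Aco1 was 0.935 ± 0.0814 in the RSEM-style tables and 0.989 ± 0.0842 in the kallisto-style tables, with each gene the higher one in at least 1 RSEM-style library. Hmox1, the haem oxygenase gene (ENSMUSG00000005413.8, chromosome 8, 75093621 to 75100589, plus strand), stood at 31.1, 28.7 and 27.3 TPM in the RSEM-style tables, and at 26.4, 24.3 and 21.8 TPM in the kallisto-style tables.

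By mean RSEM-style TPM the order was Ftl1, Ftl1-ps1, Fth1, Tfrc, Aco1, Ireb2, Hmox1, Slc11a2 and Slc40a1. Neighbours in this order did not overlap between libraries except Aco1 with Ireb2 and Ireb2 with Hmox1, which overlapped in both tables. In all, 8 of the 9 genes had at least 1 TPM in all 3 libraries in each table, against 23.6% of all genes and 52.1% of protein-coding genes; since levels chose the genes, nothing is read from this. The median of 11478 protein-coding genes at or above that level was 19.7 TPM, so Slc11a2 lay just under it.

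None of the 8 genes tested was called more variable between libraries than genes of like level. By edgeR's quasi-likelihood dispersion test, 0 of the 8 genes tested were called at an adjusted p under 0.05, and 0 had an unadjusted p under 0.05; 5 of 13391 genes were called (0.0373%) and 610 had an unadjusted p under 0.05. Slc40a1 did not pass the filter on low counts. limma-voom also called 0 of these 8 genes. Entered as 1 summed row, Ftl1 and Ftl1-ps1 had an unadjusted p of 0.0548 and an adjusted p of 0.988 in edgeR.

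Against counting noise alone, 4 of the 8 genes varied, where 12.4% of all genes tested did. Among the 76 genes of at least 1000 CPM, which include both light chain genes, this share was 85.5%. Ftl1 had 3129.6, 3554 and 3609 CPM in replicates 1, 2 and 3 (chi-square test, Benjamini-Hochberg adjusted p = 4.79e-87). Ftl1-ps1 had 2113, 2422 and 2409.8 CPM (chi-square adjusted p = 2.15e-56). As 1 summed row they had a chi-square adjusted p of 8.27e-145. In both genes replicate 1 was low and the other libraries lay close together. Tfrc, at 203, 181 and 189 CPM (chi-square adjusted p = 0.0139), and Ireb2, at 139.5, 122 and 130.7 CPM (chi-square adjusted p = 0.0276), were highest in replicate 1.

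Replicate 1 decided all of these calls. Without it 0 of the 8 genes were called by the chi-square test (lowest adjusted p = 0.715), where 0.2% of all genes were called and 952 had an unadjusted p under 0.05. Tfrc and Ireb2 also lost the call without replicate 2 (chi-square adjusted p = 0.127 and 0.317). Transcript length moved with the same contrast. Among genes of at least 20 CPM, the median log2 ratio of replicate 1 to the mean of replicates 2 and 3 was -0.10 over 754 genes with effective lengths of 500 to 1000 nt and 0.09 over 1488 genes of 4000 nt and more. Ftl1 (761 nt) and Ftl1-ps1 (732 nt) both lay at -0.19, while Fth1, of like length at 724 nt, lay at 0.05. Tfrc (4251 nt) and Ireb2 (5517 nt) both lay at 0.14. The part of length in these differences was not tested.

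**Figure D3:**
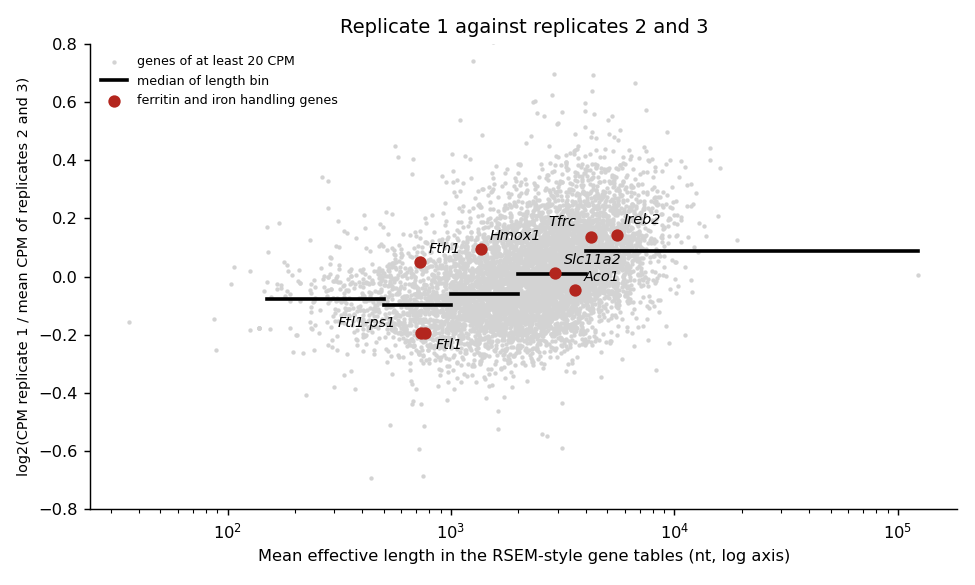
Log2 ratio of CPM in replicate 1 to the mean CPM of replicates 2 and 3, against mean effective length on a log axis, for 7584 genes of at least 20 CPM (grey), with medians of 5 length bins (black) and the 8 iron handling genes tested (red). Ftl1 and Ftl1-ps1 lie at -0.19 and Tfrc and Ireb2 at 0.14; 4 genes fall outside the plotted range.

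The mean level of each gene tested was higher in the RSEM-style tables. In log2(TPM + 1), RSEM-style minus kallisto-style, 8 of 8 genes had a positive mean difference, with a median of 0.35. Over all 14790 genes tested the median was 0.25 and the lower quartile 0.03, so most genes were positive as well. Over 7600 protein-coding genes of at least 10 TPM the median was 0.31 (quartiles 0.21 and 0.39). For 7 of the 8 the limma adjusted p was under 0.05, as for 77.6% of all genes, but 0 of 8 reached a difference of 1, where 13.1% of all genes were called. The difference was 0.60 (SE 0.052) for Ftl1-ps1, 0.56 (SE 0.052) for Ftl1 and 0.35 (SE 0.048) for Fth1. It was 0.38 for Tfrc, 0.36 for Aco1, 0.28 for Ireb2 and 0.26 for Hmox1. Slc11a2, at 0.18 (SE 0.096; limma adjusted p = 0.146), did not pass, and its RSEM-style level was the lower one in replicate 1. Its difference was 0.30 without replicate 1 (limma adjusted p = 0.0269), 0.14 without replicate 2 (limma adjusted p = 0.282) and 0.09 without replicate 3 (limma adjusted p = 0.477). Without replicate 3 the limma adjusted p was 0.0686 for Ireb2 and 0.0604 for Hmox1, both no longer under 0.05. With Ftl1 and Ftl1-ps1 as 1 summed row the difference was 0.58 (SE 0.052; limma adjusted p = 0.00135).

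In 6 of the 9 genes 1 transcript held at least 90% of the gene's TPM in each table, and the leading transcript was the same in both tables for 9 of 9 genes. The transcripts with such a share were Ftl1-201 (99.2 ± 0.181% in the RSEM-style tables, 98.4 ± 0.242% in the kallisto-style tables), Ftl1-ps1-202, Fth1-201, Ireb2-201, Aco1-201 and Hmox1-201. In the RSEM-style tables the other 5 held between 98.3 ± 1.01% (Ireb2-201) and 99.8 ± 0.0512% (Ftl1-ps1-202). In the kallisto-style tables they held between 96.1 ± 1.70% (Ireb2-201) and 99.7 ± 0.0278% (Ftl1-ps1-202). Those of Ftl1, Ftl1-ps1 and Fth1 carry the iron responsive element printed above. Nearly all TPM of Ftl1 and of Fth1 lay on transcripts with the element, 99.3 ± 0.164% for Ftl1 and 99.6 ± 0.191% for Fth1 in the RSEM-style tables. Matches in ferritin loci outside the 9 genes were not recorded, so these shares hold within each gene only.

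Slc11a2 was divided between transcripts with and without the element. Slc11a2-201, whose 3′ end lacks it, held 46.0, 45.7 and 49.3% of the gene's TPM in the RSEM-style tables, and 36.6, 43.7 and 52.5% in the kallisto-style tables. Slc11a2-205, which carries it, held 43.5, 28.6 and 36.8% in the RSEM-style tables, and 34.7, 26.6 and 37.3% in the kallisto-style tables. Slc11a2-201 was the higher of the pair in all 3 libraries of each table. Slc11a2-205 is the longer transcript, and of RSEM-style counts it held 51.8 ± 5.64%. The shorter Slc11a2-203 held 13.7 ± 3.36% of TPM in the RSEM-style tables and 8.79 ± 3.03% in the kallisto-style tables. Slc11a2-204, annotated as a target of nonsense-mediated decay, held 2.97 ± 4.99% in the RSEM-style tables and 14.1 ± 9.97% in the kallisto-style tables. Both rested on at most 17.9 estimated counts per library.

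In Tfrc, Tfrc-201 held 81.3 ± 0.722% in the RSEM-style tables and 88.5 ± 1.51% in the kallisto-style tables. Tfrc-204, an annotated retained-intron transcript with the same 4 matches, held 12.3, 10.5 and 14.4% in the RSEM-style tables, and 1.87, 1.50 and 1.19% in the kallisto-style tables. The ranges did not overlap. Its difference in log2(TPM + 1), RSEM-style minus kallisto-style, was 2.30 (SE 0.136; limma adjusted p = 0.00227). The transcripts with the 4 matches together held 93.7 ± 1.38% of Tfrc TPM in the RSEM-style tables and 90.03 ± 1.20% in the kallisto-style tables.

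Of 18 transcripts of these genes tested, 2 were called between the quantifications, where 18.9% of all 28903 transcripts were. Besides Tfrc-204, higher in the RSEM-style tables as were 6.78% of all transcripts, this was Ftl1-202, lower there as were 12.1%. Ftl1-202, an annotated target of nonsense-mediated decay, stood at 7.04, 6.09 and 4.58 TPM in the RSEM-style tables, and at 29.8, 23.9 and 22.1 TPM in the kallisto-style tables (difference -1.93, SE 0.074; limma adjusted p = 0.00104). It was under 1% of Ftl1 in both. For Slc40a1 the transcripts cannot be read with confidence: Slc40a1-201 held 83.6 ± 24.2% in the RSEM-style tables and 63.3 ± 32.3% in the kallisto-style tables, and the transcripts Slc40a1-203, Slc40a1-204 and Slc40a1-207, which reached 10% in a table, did so on under 2 estimated counts per library.

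**Figure D4:**
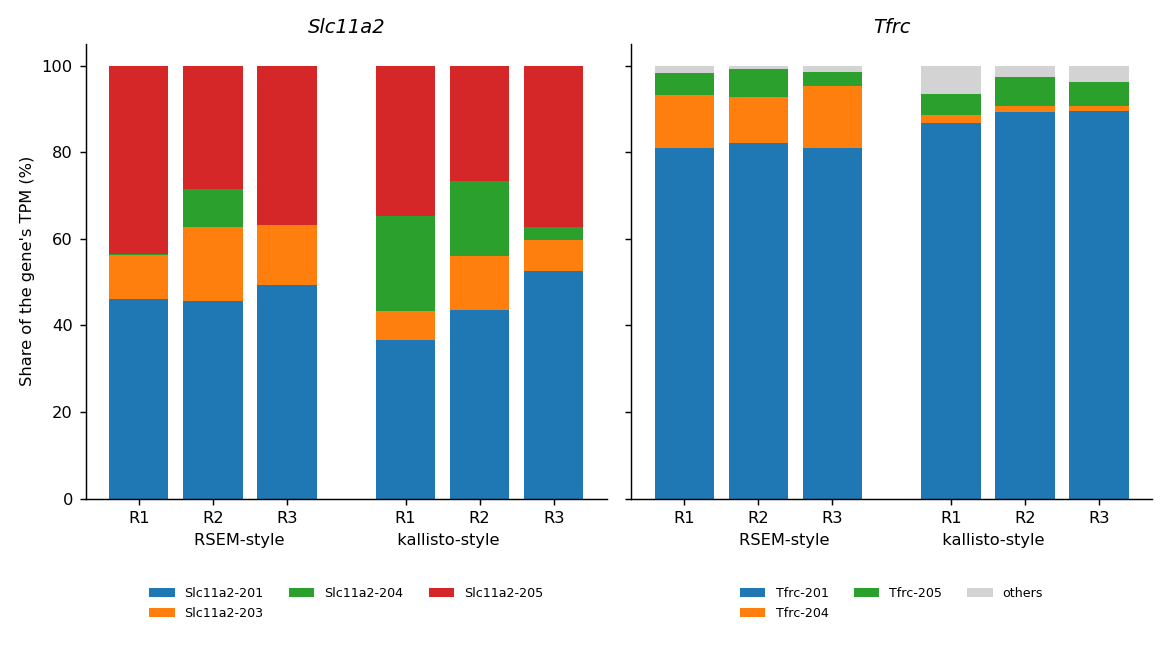
Shares of TPM of the annotated transcripts of Slc11a2 (left panel) and Tfrc (right panel) in each library R1 to R3, as stacked bars from 0 to 100%, RSEM-style tables left and kallisto-style tables right. Slc11a2 is split between Slc11a2-201 and Slc11a2-205 in every library, and Tfrc-204 has a mean of 12.4% in the RSEM-style tables and 1.52% in the kallisto-style tables.

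Other genes of iron metabolism were read from a list of 68 in 8 groups. Of these, 56 had at least 1 TPM in all 3 libraries of the RSEM-style tables, against 52.1% of protein-coding genes, as all 68 are, and 23.6% of all genes. The list's median was 32.1 TPM. The list was drawn up with earlier results of these libraries known, so nothing is read from this share. In transferrin uptake 4 of 7 did, led by the endosomal sorting genes Snx3 (243 ± 1.98 TPM) and Vps35 (160 ± 4.23 TPM), with the ferrireductase gene Steap4 lowest at 0.09 TPM in each library. In iron transport and reduction 3 of 6 did, led by Mcoln1, a lysosomal channel gene (56.6 ± 4.87 TPM), and the importer gene Slc39a14 (2.13 ± 0.591 TPM). Cp, which encodes the ferroxidase ceruloplasmin, had 0 counts in the RSEM-style gene tables and stood at 0.06 ± 0.0017 TPM in the kallisto-style tables. Both mitochondrial iron importers did, Slc25a28 at 41.4 ± 3.79 TPM and Slc25a37 at 13.8 ± 0.573 TPM.

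Among iron chaperones and genes of ferritin turnover 5 of 5 reached this level, led by Pcbp1 (359 ± 36.8 TPM), whose protein delivers iron to ferritin, and Glrx3 (325 ± 8.07 TPM). The lowest was Ncoa4, the receptor for ferritin autophagy, at 62.1 ± 4.49 TPM. In iron sensing and regulation 5 of 9 did. Fbxl5, which encodes the ubiquitin ligase subunit that targets IRP2, led at 70.1 ± 0.443 TPM, followed by the stress factor gene Nfe2l2 at 67.4 ± 1.23 TPM. Hamp, the gene of the hormone hepcidin, had 0 counts in the RSEM-style gene tables.

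In haem synthesis 8 of 9 did, among them the enzyme gene Alad (81.4 ± 3.07 TPM), with the erythroid enzyme gene Alas2 lowest at 0.397 ± 0.337 TPM. In haem transport and breakdown 8 of 8 did, led by the haem-binding Pgrmc1 (56.4 ± 1.51 TPM) and the constitutive oxygenase gene Hmox2 (44.9 ± 2.36 TPM), with the haem exporter gene Flvcr1 lowest at 4.40 ± 0.195 TPM. In iron-sulfur cluster assembly 21 of 22 did, led by the chaperone gene Hspa9 (715 ± 8.72 TPM) and Nfu1 (340.1 ± 20.2 TPM), with Iba57 lowest at 0.840 ± 0.338 TPM.

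On this list edgeR called 0 of 58 genes tested as variable, against 0.0373% of all genes, and 2 had an unadjusted p under 0.05. The chi-square test called 5 of 58, where 12.4% of all genes were called: Pcbp1, Hspa9, Nfu1, Ciapin1 and Narfl. Each lost the call without replicate 1 (chi-square adjusted p of 0.844 to 0.989). Between quantifications 2 of 57 were called, where 13.1% of all genes were. Both were lower in the RSEM-style tables, as were 10.7% of all genes. These were Cpox, a haem synthesis enzyme gene, at 19.2 ± 0.688 TPM in the RSEM-style tables and 124 ± 4.71 TPM in the kallisto-style tables (limma adjusted p = 1.72e-05), and Tfr2, a second transferrin receptor gene, at 0.857 ± 0.357 TPM in the RSEM-style tables and 12.2 ± 1.61 TPM in the kallisto-style tables (limma adjusted p = 0.000345).

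**Figure D5:**
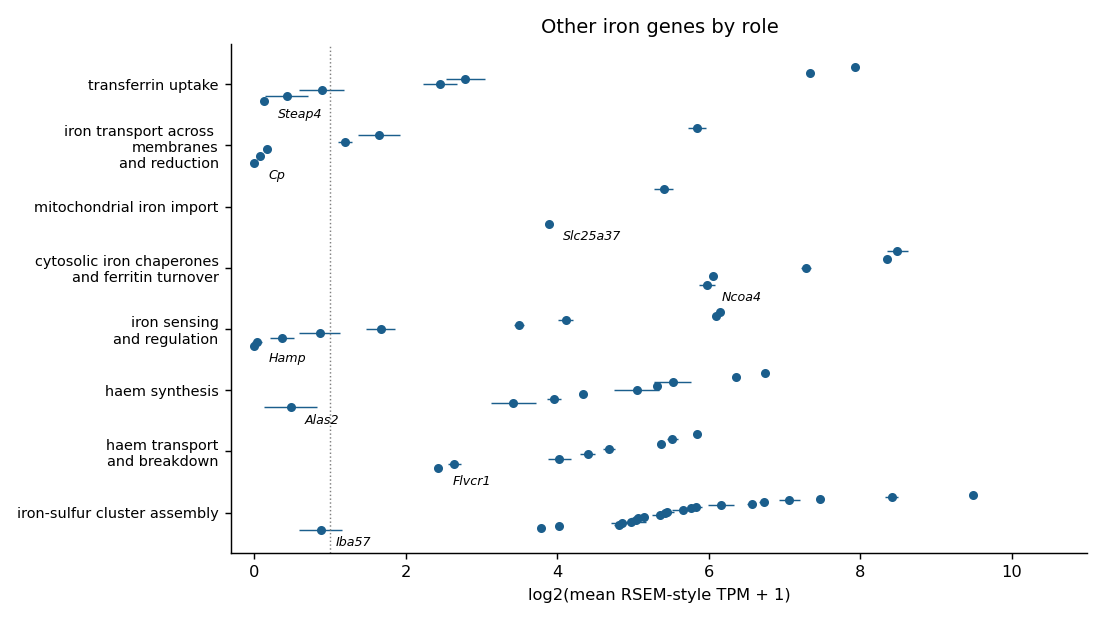
Mean RSEM-style level of 68 other iron genes as log2(TPM + 1) in 8 groups by role, with the SD over 3 libraries as error bars and the lowest gene of each group named. The dotted line marks 1 TPM; genes of iron-sulfur cluster assembly and of haem transport and breakdown lie above it except Iba57.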

How the data were processed

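Each of 3 RNA-seq libraries has a gene table and a transcript table with the columns that RSEM writes, and a transcript table with the columns that kallisto writes. The estimated counts (expected counts) were deposited by the authors per gene and transcript, with no scaling. TPM values were scaled by the authors to the same total in each library, with spike-ins in that total. Tables are on mm10 with GENCODE M21, per the notes deposited with the libraries. No quantifier, aligner, version or strand setting is given in the sources used here. Spike-in shares were 4.63 to 5.16% of TPM. Counts per library were 10610782, 9765384 and 10175403 in the RSEM-style gene tables, and 19156106, 17717726 and 18471552 in the kallisto-style tables. Over rows with an Ensembl gene ID the RSEM-style gene tables held 10425623, 9575747 and 9974983 counts, of which 3 counts equal 0.288 to 0.313 CPM. Intervals and floors cover counting error only.

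All 55536 gene IDs matched the annotation. Estimated counts were rounded, filtered on low values (filterByExpr) and scaled by TMM (edgeR 4.0.16, R 4.3.3). Each gene's quasi-likelihood dispersion over the 3 libraries was tested against the trend (edgeR), and its counts against Poisson noise (chi-square test). Paired differences of log2(TPM + 1) between RSEM-style and kallisto-style tables were tested with limma 3.58.1, for features of at least 1 TPM in every library of either table, and called at an adjusted p under 0.05 and a difference of at least 1. P-values were adjusted by Benjamini-Hochberg over all features. Scripts were tested on simulated data. The members and lists were chosen with earlier results of these data known. Genes named are the 9 members, the near copies and overlapping genes, the 2 highest and the lowest of each list group, those called variable or called between quantifications, and, after their values were seen, those called by the chi-square test. One gene that this rule names and one sequence stretch are not reported here. Alternatives were other library sizes (DESeq2 1.42.0 size factors, spike-ins), limma-voom, filters, pseudocounts, kallisto-style values and leaving out each library. Near copies, antisense overlap and replicate 1 were looked into after the values were seen.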

Additional observations from a re-analysis of the deposited data

How the results depend on the processing

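Leaving out each replicate in turn gave 7 to 14 variable genes by edgeR (5 as reported), 27 to 1471 genes beyond counting noise (1656), 2021 to 2148 genes differing between quantifications (1932) and 4983 to 5431 transcripts (5450). Variable genes numbered 2 with spike-in library sizes, 34 with no filter on low counts, 8 by limma-voom and 16 on kallisto-style counts, and in none of these was an iron handling gene called (lowest adjusted p 0.904). Kallisto-style counts gave 2800 genes beyond counting noise. A minimum of 5 TPM gave 976 genes and 2753 transcripts differing between quantifications, and no minimum difference gave 11478 and 17807. The light chain sum, 10168 TPM as reported, was 6815 TPM in the kallisto-style tables, 10700.4 TPM rescaled without spike-ins, 13748 TPM with Gm10252 and Gm47428 added (chosen after seeing the data) and 9980.02 to 10463 TPM with a replicate left out. Ftl1-ps1 over Ftl1 was 0.680 in the kallisto-style tables and 0.675 in counts, Fth1 over the sum 0.0752 in the kallisto-style tables, and Slc11a2-205 51.8% of counts. The difference of Ftl1-205, 0.059 as reported and not called, was -0.051 without replicate 1, 0.24 without replicate 2 and -0.016 without replicate 3. Chi-square calls of Ftl1, Ftl1-ps1, Tfrc, Ireb2, Pcbp1, Hspa9, Nfu1, Ciapin1 and Narfl were lost without replicate 1, those of Tfrc, Ireb2 and Narfl without replicate 2, and those of Hspa9 and Ciapin1 without replicate 3. Between quantifications, the limma adjusted p of Slc11a2 fell under 0.05 without replicate 1, and those of Ireb2 and Hmox1 no longer did so without replicate 3. The causes were not tested. No paired analysis was possible because the libraries form 1 group, so that no groups share replicate numbers; the quantifications were compared within each library. Slc40a1 rests on 30 RSEM-style counts in all, and near-identical copies limit each light chain gene alone.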

Other observations

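The iron genes called between quantifications differed through short or intron-retaining transcripts. Cpox-205, an annotated retained-intron transcript of the haem synthesis gene Cpox, stood at 3.13 ± 0.587 TPM in the RSEM-style tables and 115 ± 3.97 TPM in the kallisto-style tables, a difference of -4.82 in log2(TPM + 1) (limma adjusted p = 0.000567). The leading RSEM-style transcript Cpox-201 was higher in the RSEM-style tables, with 16.0 ± 0.734 TPM in the RSEM-style tables and 8.88 ± 0.419 TPM in the kallisto-style tables. Tfr2-202, a transcript of 454 nt, carried the difference of Tfr2 (-3.44; limma adjusted p = 0.00126). The genes were chosen for their calls, so these values are a description.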
